A study of Homo sapiens with 4 samples.

Results

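The gene table of this K562 study holds 329 entries for small nucleolar, spliceosomal and other small noncoding RNAs, out of 34692 entries in all. They were taken as every entry whose symbol begins with SNORD, SNORA, SCARNA, RNU, RN5S, RN7SK, RN7SL, RNY or VTRNA, with no measured value in the rule. By symbol they comprise 174 box C/D, 102 box H/ACA and 16 spliceosomal entries, and 37 others, of which 24 are small Cajal body RNAs. K562 is an established human line from a chronic myelogenous leukaemia. The 4 Illumina beadchip arrays compared 2 samples of cells stably transduced to over-express ZNF16, a zinc finger gene, with 2 samples of stable control transductants. Both groups were grown alike, and nothing in the labels tells whether a line is a clone or a pool, which vector or promoter drove the transgene, or whether replicates 1 and 2 are separate cultures. The p-values thus reflect the spread of these 4 arrays alone, and that spread may be technical.

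Box C/D small nucleolar RNAs guide 2′-O-methylation of ribosomal and spliceosomal RNA with the methyltransferase fibrillarin. Box H/ACA RNAs guide pseudouridylation with dyskerin, and small Cajal body RNAs do the same work on spliceosomal RNAs. Most human small nucleolar RNAs are cut from introns of a host gene, often one for a ribosomal protein or a translation factor, or a noncoding small nucleolar RNA host gene (SNHG). U1 and the other spliceosomal RNAs, U3, U13, the kinase-holding 7SK RNA, the 7SL RNA of the signal recognition particle, the Y RNAs and 5S ribosomal RNA are instead made from promoters of their own. The labelling kit named in the labels primes from poly(A) tails, which the mature forms of these RNAs lack, and the spin-column clean-up of the RNA is known to lose the shortest molecules. Whether a signal stands for a mature RNA, a precursor or a host transcript was not tested.

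Box H/ACA RNAs take their name from a conserved ACA that lies 3 bases before the 3′ end. The sequences are those of 4 members whose 3′ part RefSeq also lists as a microRNA hairpin (GRCh38.p14). SNORA84 lies at chr9:92292458-92292547 on the minus strand, SNORA36A at chrX:154768596-154768656 on the plus strand, SNORA36B at chr1:220200538-220200619 on the minus strand and the small Cajal body RNA SCARNA16 at chr17:77089417-77089497 on the plus strand. The coordinates are those of the hairpins. Capitals mark the ACA that precedes the last 3 bases of the small RNA gene, and bases beyond them lie outside that gene.
SNORA84: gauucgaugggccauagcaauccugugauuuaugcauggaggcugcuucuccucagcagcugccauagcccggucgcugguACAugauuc
SNORA36A: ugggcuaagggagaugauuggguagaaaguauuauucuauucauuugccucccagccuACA
SNORA36B: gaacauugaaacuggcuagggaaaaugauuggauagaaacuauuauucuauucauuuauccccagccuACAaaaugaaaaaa
SCARNA16: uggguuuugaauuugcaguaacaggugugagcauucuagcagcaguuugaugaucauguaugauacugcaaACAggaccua
The letters ACA alone occur in 984 of the 1562 human hairpins of that table (63.0%, given strand), so that the triplet by itself does not mark the class. SCARNA3, a further member with an ACA so placed, is not printed and was detected on control replicate 2 only. Of the 4 printed, SNORA84 alone was detected, on all 4 arrays. Its signals were 646.8 and 560.1 on ZNF16 replicates 1 and 2 and 546.8 and 653.3 on control replicates 1 and 2, and the groups overlapped.

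The deposited values are bead intensities, each with a detection p-value against the array's negative control beads. An entry counted as detected at a detection p under 0.05, which 28.6% to 31.0% of all entries reached on an array. The number of arrays limits the precision. The entry of ZNF16 itself was below detection throughout (detection p 0.404, 0.343, 0.519 and 0.693 for ZNF16 replicates 1 and 2, then control replicates 1 and 2), so that the over-expression could not be read from its entry. These p-values are not those of a single probe, and whether any one ZNF16 probe was detected cannot be read from them. Of 14 erythroleukaemia markers, 13 were detected on all 4 arrays and ALAS2 on none. Markers of T cells, B cells, monocytes and fibroblasts were detected on all 4 arrays for 1 of 4, 1 of 4, 0 of 4 and 0 of 5 genes, and epithelial markers for 3 of 4. Control replicate 2 stood apart. Over tested entries, 644 were at least 2-fold apart between the control arrays and 121 between the ZNF16 arrays, and the SD of the log2 differences was 0.521 and 0.341.

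Most small RNA entries were dim, as were most entries of the whole table. Of the 329, 203 were detected on no array, 22 on exactly 1 and 104 on at least 2, the condition for being tested, and 74 were detected on all 4. Of all 34692 entries, 20750 were detected on no array, 3074 on exactly 1, 10868 on at least 2 and 7833 on all 4. The small RNA entries were thus detected about as often as entries in general. On a single array 95 to 103 entries were detected. The 22 seen on 1 array were SNORD15A, SNORD49A, SNORD51, SNORD63, SNORD73A, SNORD91B, SNORD94, SNORD96B, SNORD116-2, SNORA5A, SNORA13, SNORA38B, SNORA43, SNORA49, SNORA58, SNORA63, SNORA66, SNORA72, SCARNA3, RNY4, RNU4-2 and RNU6ATAC. Families were unequal in this respect. All 5 U1 entries, both U6 entries and all 3 entries of U3 were tested, whereas the U2 entry, both U5 entries and both vault RNA entries were not detected, nor was 1 of the 2 for U4. Of the 30 entries of the imprinted clusters SNORD113 to SNORD116, 27 were never detected and 2 were tested. Signals of the tested entries ran from 392.4 to 60297 with a median of 605.1, most of them close to the negative controls, whose means were estimated at 369.8 to 393.1.

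No small RNA entry passed the test for a difference between ZNF16 cells and controls. The test was limma's moderated test on background-corrected, quantile-normalized log2 signals, adjusted by Benjamini-Hochberg over all 10868 tested entries of the table, of which it called 0 (0%). The smallest adjusted p of a small RNA entry was 0.427. At an unadjusted p under 0.05, 9 of the 104 were higher in ZNF16 cells, where 3.66% of all tested entries were, and 7 were lower, where 4.01% were. The fitted log2 difference, ZNF16 minus control, was above 0 for 72 entries and below 0 for 32, against 51.3% and 48.7% of all tested entries, and its median was 0.16 beside 0.01. Both ZNF16 arrays lay above both control arrays for 36 entries (34.6%, background 21.0%) and below both for 15 (14.4%, background 19.0%). Every log2 difference below has this direction and scale. Standard errors of single entries ran from 0.21 to 0.43, so that differences smaller than 0.21 lie within 1 standard error.

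The class medians lay on both sides of 0. Of 46 tested box C/D entries, 36 were above 0 with a median of 0.27, and of 35 box H/ACA entries, 29 were above 0 with a median of 0.19. Of 9 spliceosomal entries, 7 were below 0 with a median of −0.44. However, 5 of the 9 are U1 entries, nearly identical in sequence, at −1.09 to −0.44. The rest ran from −0.29 to 0.21, so that the class median largely stands for U1. The 14 other entries had 9 below 0 and a median of −0.16, and 4 of their 6 small Cajal body RNAs were below 0, with a median of −0.16. Classes follow the symbols, so that RNU86, now SNORD139, and RNU105A, now SNORA73B, count among the other entries. No test of the difference between classes was made. Without control replicate 2 the medians were 0.18, 0.28, −0.25 and 0.037 for box C/D, box H/ACA, spliceosomal and other entries, so that the last of them changed sign. With the arrays scaled to a common median in place of quantile normalization, all tested entries moved to a median of −0.19, the box H/ACA median became −0.046 and the box C/D median 0.0048, while the spliceosomal median became −0.72.

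**Figure D1:**
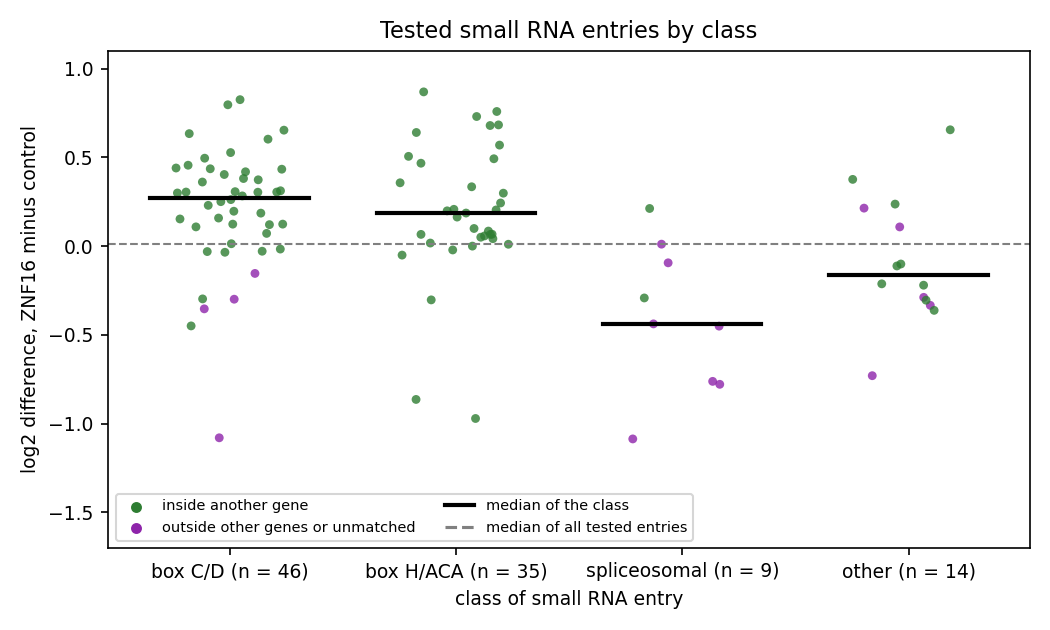
Each point is a tested small RNA entry, placed on the vertical axis by its fitted log2 difference (ZNF16 minus control, 2 arrays a group) and on the horizontal axis by class. Black bars are class medians (0.27, 0.19, −0.44 and −0.16) and the dashed line is the median of all tested entries (0.01). Of the 9 spliceosomal entries, 5 are for U1 and nearly identical in sequence. With median scaling the box H/ACA median turns to −0.046, where the median of all tested entries turns to −0.19. Without control replicate 2 the median of the other entries turns to 0.037.

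The entries were also grouped by position in the genome. Setting RefSeq's GRCh38.p14 annotation beside the entries placed 303 of the 329 inside the span of another gene and 25 outside any other gene, with 1 unmatched. This grouping was chosen after the values were seen and is a description only. Of the 88 tested entries inside another gene, 69 were above 0 (median 0.21) and 36 had both ZNF16 arrays above both controls (40.9%, against 21.0% of all tested entries). Of the 15 tested outside other genes, 12 were below 0 (median −0.33). In 9 of the 15 both ZNF16 arrays lay below both controls (60%, against 19.0% of all tested entries), and in none were both above. Several of the 15 are copies of U1, U3 or U6, nearly identical in sequence within each RNA. The 15 thus do not count as separate genes, and the 60% counts U1 and U3 repeatedly. The medians without control replicate 2 were 0.21 and −0.25. The controls differed among themselves in the same entries: control replicate 2 minus control replicate 1 had a median of 0.33 outside other genes and −0.05 inside, and ZNF16 replicate 2 minus replicate 1 had 0.22 and −0.02. The part of this array difference in the result was not tested.

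**Figure D2:**
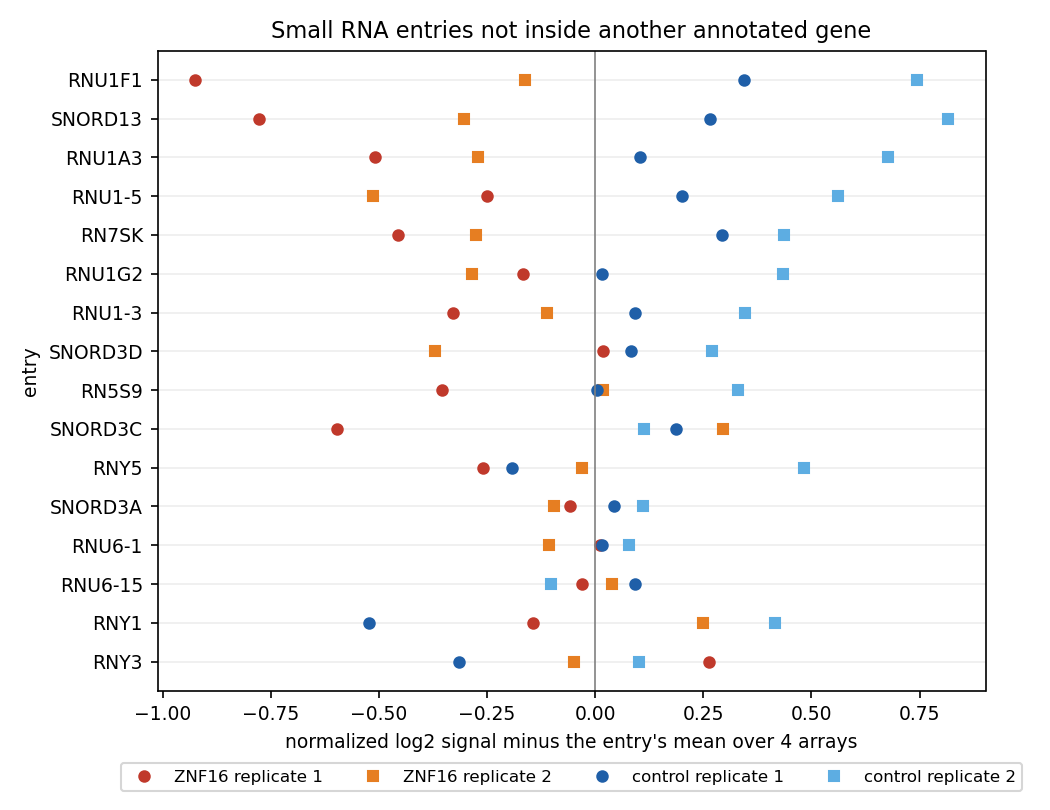
Normalized log2 signal of each of the 15 tested entries outside other genes, and of the unmatched RNU1-5, on each array, with the entry's own mean over the 4 arrays set to 0 on the horizontal axis. In the U1 entries, SNORD13 and RN7SK both ZNF16 arrays lie left of both control arrays, and control replicate 2 lies farthest right in each of them.

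U1 RNA pairs with the 5′ splice site as the first step of intron recognition. The array has 5 U1 entries, which are nearly identical in sequence and do not count as separate genes. In all 5 both ZNF16 arrays lay below both control arrays, as in 19.0% of all tested entries. Their log2 differences were −1.09 to −0.44 with a median of −0.76. The entry RNU1-5 had signals of 881.2 and 824.6 in ZNF16 replicates 1 and 2 and of 1123 and 1275 in control replicates 1 and 2. RNU1A3, now RNU1-1, had 793.8 and 904.3 against 1064 and 1340.2. In RNU1-5 the nearest arrays of the groups lay farther apart than the control arrays did, and in RNU1A3 they lay closer. Their log2 differences were −0.76 ± 0.24 (SE; adjusted p = 0.551) and −0.78 ± 0.27 (adjusted p = 0.590).

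The other U1 entries were dimmer. RNU1F1 had 445.2 and 532.1 in ZNF16 cells and 597.8 and 690.7 in controls, a log2 difference of −1.09 ± 0.31 (adjusted p = 0.490), and ZNF16 replicate 1 was below detection. RNU1G2 had 627.2 and 622.1 against 680.8 and 796.7 (log2 difference −0.45, adjusted p = 0.674), and RNU1-3 had 655.4 and 724.2 against 776.9 and 858.8 (−0.44, adjusted p = 0.669). RNU1F1 and RNU1G2 both match the current gene RNU1-4, and U1 copies are nearly identical in sequence, so that the 5 entries cannot be read as 5 separate genes. Without control replicate 2 the 5 remained below 0, at −0.86 to −0.25 with a median of −0.50. Under each of the 13 alternatives run, every U1 entry that was still tested stayed below 0.

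The remaining spliceosomal entries were closer to 0. U6 forms the catalytic centre of the spliceosome with U2 and was among the brightest entries here. RNU6-1 had signals of 6660.4 and 6498 in ZNF16 cells and 7149 and 6807 in controls, a log2 difference of −0.09 ± 0.21. RNU6-15, now annotated as the pseudogene RNU6-15P, had 5921 and 6468 against 6726 and 5506, with overlapping groups and a log2 difference of 0.01. Copies of U6 cannot be told apart either. U11 and U4atac serve the minor spliceosome: RNU11 had a log2 difference of 0.21 ± 0.23 and RNU4ATAC one of −0.29 ± 0.25.

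Among box C/D entries, the 4 tested outside other genes had negative log2 differences, with a median of −0.33. These are SNORD13 and the entries for U3. SNORD13, or U13, had signals of 1146 and 1509 in ZNF16 replicates 1 and 2 and of 2099 and 2604 in control replicates 1 and 2. The groups did not overlap, and the higher ZNF16 array was below the lower control array by more than the ZNF16 arrays differed. Its log2 difference was −1.08 ± 0.29, or 2.11-fold lower, with an adjusted p of 0.455. Over the alternatives run it ranged from −1.35 to −0.76 with a smallest adjusted p of 0.0502.

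U3 guides early cleavages of the ribosomal precursor rather than a methylation. SNORD3A had signals of 796.2 and 811.5 in ZNF16 cells and 856.5 and 879.6 in controls, without overlap and with a log2 difference of −0.15 ± 0.21. SNORD3D had 779.8 and 702.3 against 824.4 and 887.8 (−0.35 ± 0.24). SNORD3C had 506.0 and 633.8 against 612.3 and 623.6, with overlapping groups (−0.30 ± 0.32), and turned to 0.15 without ZNF16 replicate 1. The copies of U3 share nearly all of their sequence.

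Of the other RNAs with their own promoters, 7SK stood lowest. 7SK holds the elongation kinase P-TEFb in an inactive particle. The entry RN7SK had signals of 649.0 and 707.3 in ZNF16 cells and 872.3 and 919.2 in controls, with no overlap. Its log2 difference was −0.73 ± 0.22 (adjusted p = 0.527). It combines several probes, and its averaged detection p-values were 0.226 and 0.136 in ZNF16 cells against 0.002 in control replicate 1. RN7SK thus passed the detection filter through the control arrays alone, and its gap is not independent of the filter.

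7SL RNA, the scaffold of the signal recognition particle, was near the top of the intensity range. RN7SL1 had signals of 47289 and 49594 in ZNF16 cells and 53099 and 60297 in controls, where the highest signal in the whole table was 68827. Its log2 difference was −0.11 ± 0.22 and turned to 0.020 without control replicate 2. Its gene lies within the annotated span of RPS29 and is counted there among entries inside another gene, although 7SL RNA is made from its own promoter. RN5S9, an entry for 5S ribosomal RNA, had 793.0 and 952.7 against 949.6 and 1075, with overlapping groups and a log2 difference of −0.33 ± 0.25, or −0.17 without control replicate 2.

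Y RNAs are short RNAs that bind the Ro60 protein. RNY1 had signals of 528.6 and 587.2 in ZNF16 cells and 474.1 and 634.1 in controls, and the ZNF16 arrays lay between the control arrays. RNY3 had 698.7 and 648.9 against 599.1 and 696.4, and RNY5 473.3 and 498.1 against 464.1 and 581.1. The log2 differences were 0.11 ± 0.35, 0.21 ± 0.25 and −0.29 ± 0.28, at most about 1 standard error from 0, and each changed sign under at least 1 alternative.

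Among the 6 tested small Cajal body RNAs, log2 differences ran from −0.36 for SCARNA12 to 0.65 for SCARNA23. SCARNA23, which lies within POLA1, the gene for the catalytic subunit of DNA polymerase alpha, had signals of 520.2 and 534.5 in ZNF16 cells and 463.4 and 432.7 in controls. Its groups did not overlap, the adjusted p was 0.620, and the difference without control replicate 2 was 0.41. The other 4 were SCARNA9 (−0.22), SCARNA10 (0.24), SCARNA13 (−0.31) and SCARNA22 (−0.10).

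Box C/D entries from introns lay mostly above 0 without any of them passing the test. SNORD88B, within C19orf48P, was detected on both ZNF16 arrays, at 504.9 and 510.7, and not well above background on the control arrays, at 392.4 and 419.8. On these arrays it was at least 1.22-fold higher in ZNF16 cells (mean normalized log2 signals 7.12 and 6.30, adjusted p = 0.427). That bound holds for these 4 arrays and this background correction only, and takes no account of sampling error. The fitted log2 difference was 0.30 without a correction. SNORD88B passed the detection filter through the ZNF16 arrays alone, so that its gap is not independent of the filter. SNORD110, within NOP56, had 528.0 and 569.3 in ZNF16 cells and 460.1 and 483.8 in controls, again without overlap (log2 difference 0.63, adjusted p = 0.600). SNORD36A, within RPL7A, had 704.5 and 646.1 against 564.7 and 585.5 (0.65, adjusted p = 0.600). These were the box C/D entries above 0 at an unadjusted p under 0.05.

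Another 6 box C/D entries were among the 30 small RNA entries with the smallest p. SNORD96A (log2 difference 0.60), SNORD99 (0.53), SNORD17 (0.44), SNORD36C (0.43) and SNORD14B (0.44) had both ZNF16 arrays above both control arrays, with adjusted p-values of 0.657 to 0.677. Without control replicate 2, SNORD99 had 0.29, SNORD17 0.27 and SNORD14B 0.21. SNORD35B had signals of 827.7 and 723.0 in ZNF16 cells and 744.1 and 532.4 in controls, with overlapping groups and a log2 difference of 0.80 ± 0.43, which was 0.15 without control replicate 2. SNORD46 was the lowest box C/D entry inside another gene. Its signals were 524.5 and 532.7 in ZNF16 cells, 525.1 in control replicate 1 and 683.3 in control replicate 2, and its log2 difference of −0.45 ± 0.31 was −0.040 without the last of these arrays.

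Box H/ACA entries held the brightest intron-derived members. SNORA61, within SNHG12, had signals of 4476 and 3922 in ZNF16 cells and 3175 and 3424 in controls, without overlap, and a log2 difference of 0.33 ± 0.24. SNORA24, within SNHG8, had 1885 and 1579 against 1321 and 1136, also without overlap (0.68 ± 0.24, adjusted p = 0.611). In both, the gap between the nearest arrays of the groups was no larger than the gap within the ZNF16 pair. SNORA6, within the ribosomal protein gene RPSA, had 912.7 and 806.7 against 710.4 and 610.9 and the highest log2 difference of the class, 0.87 ± 0.29 (adjusted p = 0.582), or 0.57 without control replicate 2. SNORA3, now SNORA3A, within RPL27A, had 732.7 and 720.9 against 624.8 and 570.5 (0.76 ± 0.25, adjusted p = 0.580).

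Another 8 box H/ACA entries among the 30 with the smallest p were above 0, each with both ZNF16 arrays above both control arrays. They were SNORA16A (log2 difference 0.73), SNORA33 (0.68), SNORA65 (0.64), SNORA80 (0.57), SNORA26 (0.51), SNORA57 (0.49), SNORA25 (0.47) and SNORA45, now SNORA3B (0.36). Their adjusted p-values ran from 0.620 to 0.687. SNORA33 had 0.39 and SNORA80 0.34 without control replicate 2. SNORA16A had 618.9 and 540.0 in ZNF16 cells against 467.8 and 508.8 in controls.

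The lowest box H/ACA entries were detected in control cells and not well above background in ZNF16 cells. They passed the detection filter through the control arrays alone, so that their gaps are not independent of the filter. SNORA12, within CWF19L1, had signals of 463.0 and 478.1 in ZNF16 cells and 592.8 and 573.3 in controls, and was at least 1.68-fold lower in ZNF16 cells (mean normalized log2 signals 6.79 and 7.65, adjusted p = 0.455) under the same limits on the bound. SNORA79, within GTF2A1, had 410.6 and 440.1 against 466.1 and 631.6 and was at least 1.40-fold lower under those limits (6.41 and 7.38, adjusted p = 0.609). Without a background correction the fitted log2 differences of SNORA12 and SNORA79 were −0.29 and −0.35. The fitted log2 difference of SNORA79 went from −0.97 to −0.46 without control replicate 2, and that of SNORA12 from −0.86 to −0.97.

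**Figure D3:**
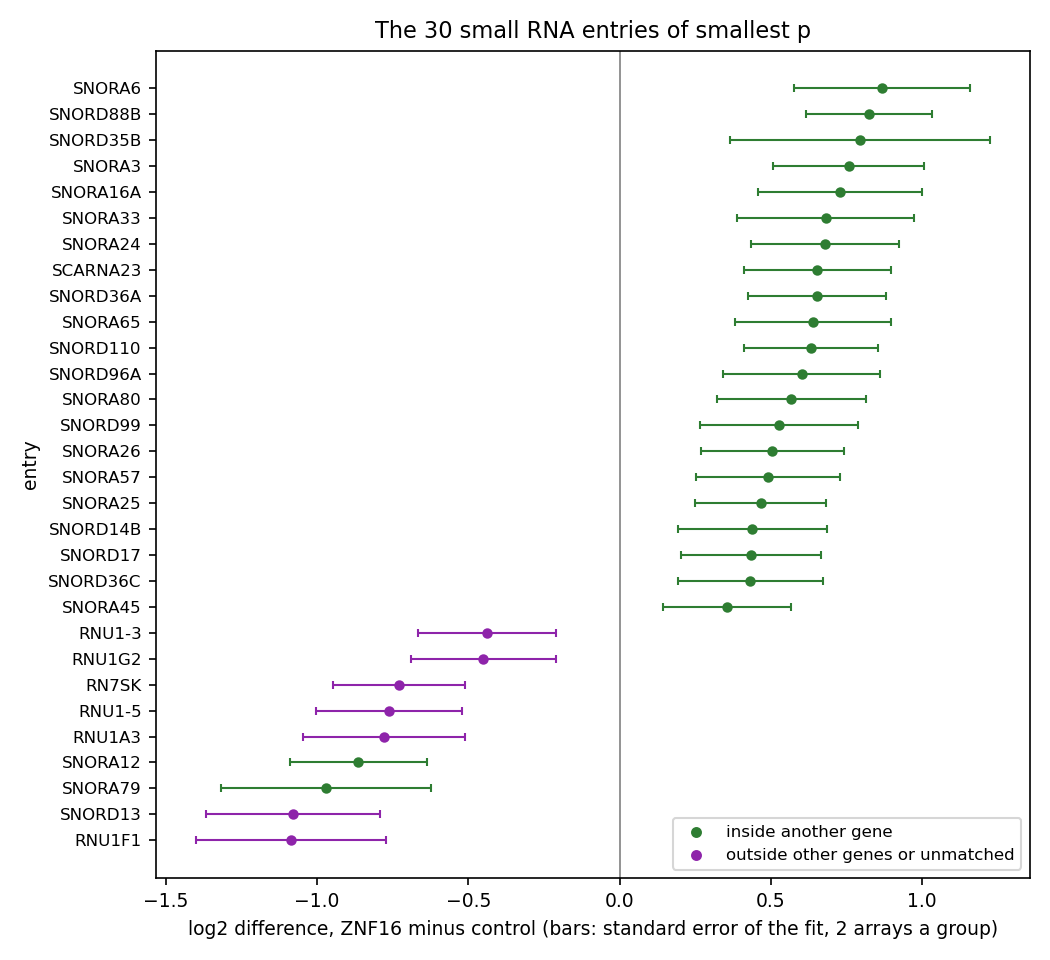
Fitted log2 difference (horizontal axis, ZNF16 minus control) of the 30 small RNA entries with the smallest p, with bars of 1 standard error. All 21 above 0 lie inside another gene, and 7 of the 9 below 0, all 5 U1 entries among them, lie outside other genes or are unmatched. Of all 104 tested entries 88 lie inside another gene, as do 69 of the 72 above 0. Of the 32 below 0, 12 lie outside other genes and 1 is unmatched. Several of these are copies of U1 or U3, nearly identical in sequence, and do not count as separate genes. None of the 30 passes the adjusted threshold.

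Of these 30 entries, 21 were above 0 and 9 below, and the 30 kept their direction under each alternative in which they were still tested. For 29 of them the groups did not overlap. They were picked for their small p, so that these counts describe the selection.

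Entries cut from the same host gene could be compared with each other and with the host. In SNHG12, SNORA16A, SNORA61 and SNORD99 had log2 differences of 0.33 to 0.73. In SNHG1, SNORD22, SNORD25, SNORD30 and SNORD31 had 0.11 to 0.46, and in NOP56, SNORD110, SNORD56 and SNORD57 had 0.19 to 0.63. Members of 1 host did not always lie on the same side of 0. In RPL13A, SNORD33 and SNORD35A had 0.30 and 0.49 and SNORD32A −0.30. The entries SNORA73B and RNU105A, now a single gene for a form of U17 RNA, which acts in ribosomal RNA processing, had 0.19 and 0.38.

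Host transcripts were set beside the small RNAs in their spans, without a test of the difference. A host is here any gene whose span holds the entry, on either strand. Pairs thus include RN7SL1 with RPS29 and RNU4ATAC with CLASP1, where the small RNA has its own promoter. Of 59 tested small RNA entries whose host gene was itself tested, 47 were above 0 with a median of 0.24. Their 42 host genes had 28 above 0 and 14 below, a median of 0.07, a range from −0.30 to 0.47 and no call (smallest adjusted p 0.677). RPL27A, which holds SNORA3 and SNORA45, had signals of 42712 and 46699 in ZNF16 cells and 48285 and 48230 in controls. Its log2 difference was 0.01 ± 0.21. RPL7A, which holds SNORD36A and SNORD36C, had 3278 and 4287 against 3140 and 3118 (0.26 ± 0.24). CWF19L1 had signals of 3569 and 2784 in ZNF16 cells and 3025 and 1932 in controls, with overlapping groups and control replicate 2 the lowest. Its log2 difference was 0.42 ± 0.29, opposite in sign to that of SNORA12.

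Most hosts of the remaining entries among the 30 were near 0 or untested. NOP56 and POLA1 had log2 differences of 0.26 each and SNX5, the host of SNORD17, one of 0.18. KIAA0114, now DANCR and host of SNORA26, had 0.13, and C11ORF48, now LBHD1, had 0.07, as did RPS12, host of SNORA33. LBHD1 and CSKMT both span SNORA57 on opposite strands, so that they cannot both be its host, and which of them is was not tested. GNB2L1, now RACK1 and host of SNORD96A, had 0.03. RPL12, host of SNORA65, had −0.03 and RPS13, host of SNORD14B, −0.21. RPSA, C19ORF48, SNHG8, SNHG12, TAF1D (host of SNORA25), URB1 (host of SNORA80), METTL12 (now CSKMT, which also spans SNORA57) and GTF2A1 did not pass the detection filter. RPSA signals were nonetheless high, at 12255 to 14338, in an entry whose detection p-values are averages over several probes.

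**Figure D4:**
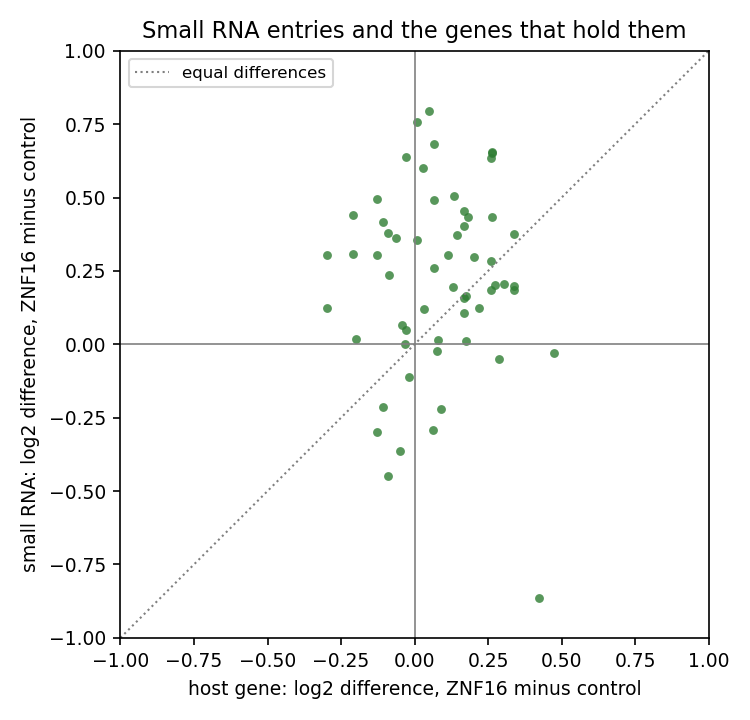
Each of the 59 points is a small RNA entry, with the fitted log2 difference (ZNF16 minus control) of its host gene on the horizontal axis and its own on the vertical axis; the dotted line marks equal differences. Host genes stay between −0.30 and 0.47, and 47 of the 59 small RNA entries lie above 0. A host is any gene whose span holds the entry, on either strand. Entries of 1 host share a horizontal position and are not independent.

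Many small nucleolar RNA hosts belong to the genes whose transcripts begin with a run of pyrimidines, the 5′ terminal oligopyrimidine tract known from ribosomal protein genes. A run is here at least 7 letters C or T that touch the 5 bases before to 5 after the annotated start. It was searched only on the strand that reads as the transcript does. Such a run was found in 24 of the 59 host genes with a start in the RefSeq table (40.7%). Of all 35116 genes there, 15.4% had one. Host genes are again all genes spanning an entry on either strand, with CLASP1 among those with a run and RPS29 among those without. The sequences below run from 60 bases before to 20 after the start, with the run in capitals (RefSeq, GRCh38.p14). They are examples from some hosts of members shown above. Unlike most of the 59 hosts, most of these examples have a run. They lie at chr1:28581854-28581933 on the minus strand (SNHG12), chr11:8682732-8682811 (RPL27A), chr9:133348158-133348237 (RPL7A) and chr3:39406660-39406739 (RPSA) on the plus strand, and chr20:2652572-2652651 on the plus strand (NOP56, a host without a run).
SNHG12: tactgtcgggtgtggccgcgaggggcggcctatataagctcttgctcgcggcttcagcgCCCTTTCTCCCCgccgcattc
RPL27A: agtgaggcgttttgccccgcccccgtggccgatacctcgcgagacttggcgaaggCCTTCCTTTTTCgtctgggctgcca
RPL7A: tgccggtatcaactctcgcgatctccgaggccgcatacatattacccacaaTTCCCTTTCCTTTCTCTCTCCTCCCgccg
RPSA: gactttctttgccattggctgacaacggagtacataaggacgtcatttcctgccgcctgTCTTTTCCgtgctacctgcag
NOP56: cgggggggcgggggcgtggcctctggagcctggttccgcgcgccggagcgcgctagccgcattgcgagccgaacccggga
The runs are 12, 12, 25 and 8 bases long in SNHG12, RPL27A, RPL7A and RPSA. A run is a description of the letters, and its part in the signals was not tested.

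Genes for the proteins that carry, make and mature these RNAs were read from 10 lists. The lists were drawn up with earlier results of these data known. They held 170 different tested genes, of which none passed the test (limma, smallest adjusted p 0.539). At an unadjusted p under 0.05, 6 were higher in ZNF16 cells (3.53%, against 3.66% of all tested entries) and 0 lower (against 4.01%), so that the share of higher genes was near the background. The median log2 difference was 0.12, beside 0.01 for all tested entries.

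For the box C/D core and assembly genes, 9 of 11 were above 0 with a median of 0.26. Fibrillarin, FBL, had signals of 12285 and 12462 in ZNF16 cells and 11444 and 7484 in controls, with control replicate 2 the lowest, and a log2 difference of 0.45 ± 0.25 that was 0.20 without that array. NHP2L1, now SNU13, and NOP58 had 0.31 and 0.30. For the box H/ACA core and assembly genes, 6 of 10 were above 0 with a median of 0.23. NOLA1, now GAR1, a core protein of the particle, had 1599 and 1631 against 1185 and 1154, with close replicates and no overlap. Its log2 difference was 0.66 ± 0.21 (adjusted p = 0.556). The assembly factors NAF1 and SHQ1 had 0.63 and 0.42.

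Spliceosomal particle proteins and the SMN complex, which loads them on U1 and its relatives, had 22 of 33 genes above 0 and a median of 0.16. GEMIN5, which recognises small nuclear RNAs for the SMN complex, had signals of 730.7 and 793.2 in ZNF16 cells and 643.5 and 632.0 in controls (log2 difference 0.64, adjusted p = 0.587). GEMIN4 and WDR77 had 0.70 and 0.40, the first falling to 0.21 without control replicate 2. Of the genes for transcription and 3′ processing of small nuclear RNAs, 13 of 21 were above 0 with a median of 0.14. INTS7, a subunit of the Integrator complex that cleaves their 3′ ends, had 699.4 and 643.9 against 564.7 and 495.8. The groups did not overlap, and the log2 difference was 0.97 ± 0.30 (adjusted p = 0.539), or 0.62 without control replicate 2. CPSF3L, now INTS11, the Integrator endonuclease, had −0.50 and SNAPC4, a subunit of the factor that binds small nuclear RNA promoters, 0.55 with overlapping groups. They had −0.11 and 0.064 without control replicate 2.

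RNA polymerase III and its factors, which make U6, 7SK, 7SL, Y and 5S RNA, had 12 of 20 genes above 0 and a median of 0.06. POLR3G, TBP and GTF3A had log2 differences of 0.44, 0.31 and 0.29. The 7SK particle and P-TEFb genes had 3 of 4 above 0 with a median of 0.31. MEPCE, which caps 7SK RNA, had signals of 584.3 and 647.8 in ZNF16 cells and 503.5 and 558.6 in controls (log2 difference 0.65, adjusted p = 0.609), opposite in sign to RN7SK. HEXIM1 and CDK9 had 0.45 and 0.16, which became −0.17 and 0.047 without control replicate 2.

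Signal recognition particle genes had 6 of 8 above 0 and a median of 0.07, with SRP72, SRP19 and SRPRB at log2 differences of 0.31, 0.26 and 0.26. SRP72 had 0.19 and SRPRB −0.048 without control replicate 2. Of the genes for Ro, La and vault proteins, 2 of 4 were above 0. TROVE2, now RO60, the partner of the Y RNAs, had signals of 2574 and 2663 in ZNF16 cells and 1776 and 1768 in controls. The groups lay far apart beside the gaps within them. Its log2 difference was 0.66 ± 0.21 with an adjusted p of 0.571. MVP and SSB had −0.28 and −0.23, or −0.19 and −0.11 without control replicate 2. The exosome and 3′ maturation genes had 11 of 17 above 0 and a median of 0.29, with EXOSC8, EXOSC2 and PARN at 0.87, 0.53 and 0.56. In each of them control replicate 2 was the lowest array, and without it these values were 0.18, 0.26 and 0.12. Among a list of 46 tested host genes, SF3B3, HSPA8 and RPL5 had the smallest p, with log2 differences of 0.65, 0.45 and 0.47. SF3B3 had 0.32 and RPL5 0.19 without control replicate 2.

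The size of the differences depended on the background correction. Without a correction the medians inside and outside other genes were 0.10 and −0.18, and with the negative controls estimated from all entries they were 0.023 and −0.054. With median scaling 40 of the 88 entries inside another gene were above 0, where 69 were with quantile normalization, and 0 of the 15 outside. Relative to the median of all tested entries, the medians then were 0.16 and −0.42.

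**Figure D5:**
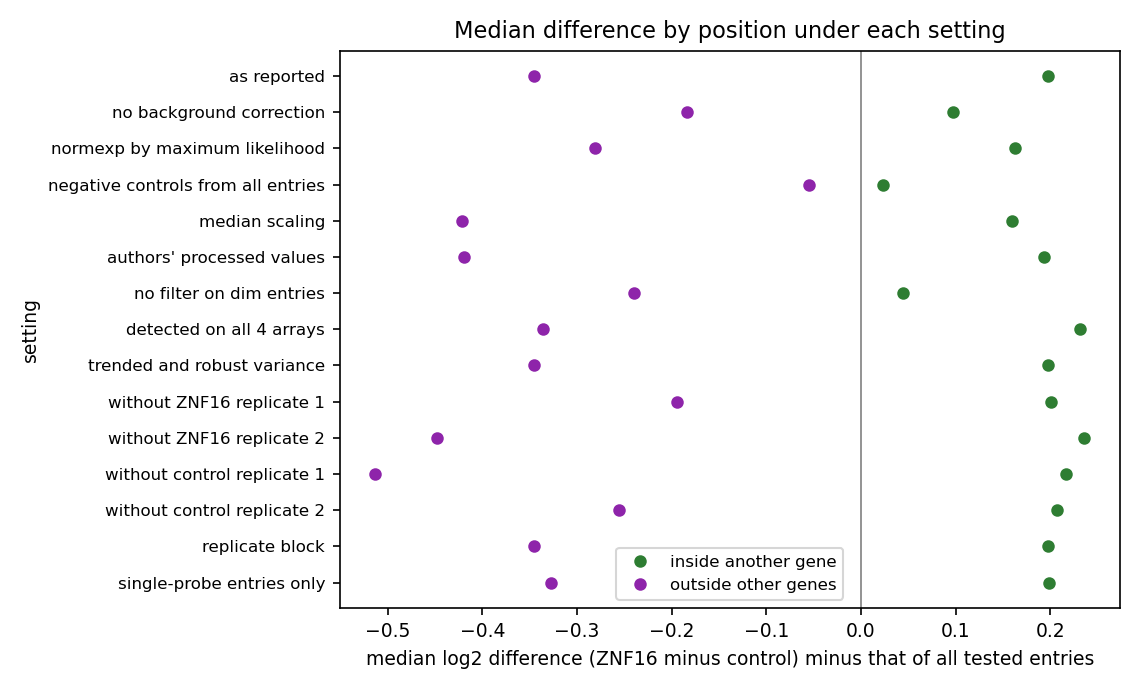
Median log2 difference of entries inside another gene (green) and outside other genes (purple), minus the median of all tested entries, under the reported setting (0.20 and −0.35) and each alternative (vertical axis). The medians lie on opposite sides of 0 in each of them, and nearest to 0 with negative controls taken from all entries (0.023 and −0.054). On their own scale, not relative to all entries, the median inside another gene is −0.030 under median scaling.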

How the data were processed

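Biotin-labelled RNA of 4 K562 samples was read on Illumina beadchips, and GenomeStudio 2010.2 is named by the submitters' processing notes. The main deposited table holds linear bead intensity values, neither background-subtracted nor scaled as judged from the values, with a detection p-value for each array, per the file headers. It has 34692 entries, 1 for each symbol, and 27095 have detection p-values on steps of 1 in 770 (within 0.002), as a single probe gives. The rest, 2 of the 329 small RNA entries among them, were taken as averages over probes. A second deposited table holds the authors' processed intensity values of 34685 entries, which follow a straight line of the signal on each array (slopes 1.05, 0.985, 0.948 and 1.02; medians 45.1, 40.7, 40.5 and 43.4, for the ZNF16 arrays, then the control arrays, each in replicate order). The sources used here give no genome build, way of combining probes, slide or scan.

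Signals were corrected by the normexp model of limma 3.58.1 (R 4.3.3), with negative-control means and SDs inferred from single-probe detection p-values and an offset of 16, then quantile normalized and taken to log2. Entries with detection p under 0.05 on at least 2 arrays were tested (10868) with lmFit and eBayes (two-sided), taking ZNF16 minus control and calling Benjamini-Hochberg adjusted p-values under 0.05. ZNF16 was not among them. The scripts were tested on simulated data. The bound for an entry detected in 1 group only takes, on each array of the dim group, the higher of its own value and the lowest detected single-probe value.

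Members, lists and tests were chosen with earlier results of these data known. The 30 tested members of smallest p, members detected on 1 array, up to 3 genes of smallest p in each list and hosts of named members were named by rule, and 12 members were added for their role after their values were seen (RN5S9, RN7SL1, SNORD3A, SNORD3C, SNORD3D, SNORA61, RNU6-1, RNU6-15, RNY1, RNY3, RNY5, SNORD46). SNORA84, other small Cajal body and minor spliceosomal entries and shared-host members were also named after their values were seen. RefSeq GRCh38.p14 matched 308 entries by symbol and 20 by an older symbol, and RNU1-5 stayed unmatched. Host spans were compared without regard to strand. Alternatives were background correction, normalization, the authors' values, filters, variance model, leaving out each array and the replicate block. Some host genes are not reported here.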

Additional observations from a re-analysis of the deposited data

How the results depend on the processing

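The count of small RNA entries past the threshold was 0 under all 13 alternatives. Of all tested entries past the threshold, 0 as reported, there were 3 with normexp fitted by maximum likelihood, 7 with median scaling, 3 with trended and robust variance, 0 to 91 leaving out 1 array each (2 without ZNF16 replicate 1, 91 without control replicate 1, 1 without control replicate 2) and 114 with the replicate block. The labels number the arrays 1 and 2 in each group without saying what a number shares. Deviations from the group means correlated at r = 0.193 between replicates 1 of the groups, over tested entries, and with 2 pairs this does not settle a pairing. The block changed no call among small RNA entries or partner gene lists. The partner gene lists had 0 to 1 genes past the threshold leaving out 1 array each, the 1 being EXOSC8 without control replicate 1 (log2 difference 1.56, adjusted p = 0.0497).

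The median log2 difference of detected small RNA entries, 0.16 as reported, was 0.065 without background correction, 0.015 with negative controls from all entries, −0.059 with median scaling and 0.026 with no filter on dim entries. In the same order the medians were 0.10, 0.022, 0.0048 and 0.042 for box C/D entries (0.27), and −0.20, −0.061, −0.72 and −0.20 for spliceosomal entries (−0.44). They were 0.10, 0.023, −0.030 and 0.048 inside another gene (0.21), and −0.18, −0.054, −0.61 and −0.24 outside other genes (−0.33). For box H/ACA entries (0.19) they were 0.031 with negative controls from all entries, −0.046 with median scaling and 0.061 with no filter. Median scaling moved the median of all tested entries to −0.19. Leaving out 1 array each gave 0.18 to 0.28 for box H/ACA, −0.57 to −0.25 for spliceosomal, −0.19 to 0.037 for other entries and −0.50 to −0.18 outside other genes. The single-probe entries alone gave 0.16. The cause of these shifts was not tested.

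Of the 42 small RNA entries fixed by rule or role, 36 kept their sign in each alternative run, and of these and the partner genes together 63 of 72. Signs turned under median scaling for RNU6-15 (−0.15), RNY1 (−0.15), RNY3 (−0.095) and CDK9 (−0.040). Signs also turned for 7 entries when 1 array was left out: RN7SL1 ranged from −0.27 to 0.020 (higher than 0 without control replicate 2), SNORD3C from −0.78 to 0.15 (without ZNF16 replicate 1) and RNU6-15 from −0.090 (without control replicate 2; −0.022 without ZNF16 replicate 2) to 0.12. RNY1 ranged from −0.35 (without control replicate 1; −0.084 without ZNF16 replicate 2) to 0.55. Without control replicate 2, RNY5 reached 0.046 (lowest −0.60), HEXIM1 −0.17 (highest 1.04) and SRPRB −0.048 (highest 0.56). Signal close to background limits most small RNA entries, and the loss of 1 array leaves a lone array that is assumed to vary like the other group.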
